A study of Homo sapiens with 21 samples.

Results

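Heat shock proteins and the CCT chaperonin were followed across 21 messenger RNA libraries of HEK 293FT, a fast-growing human embryonic kidney line that carries the SV40 large T antigen. The set held protein-coding genes whose symbols start with HSPA, HSPB, HSPD, HSPE, HSPH, HSP90A, DNAJA or DNAJB, the 8 genes of the CCT ring, and HSF1, HSF2, BAG3 and STIP1. The endoplasmic reticulum genes HSPA5, HSP90B1, DNAJB9 and DNAJB11 and readthrough names were left out. This gave 55 of 27142 genes. Of the 55, 43 reached at least 1 FPKM (read fragments scaled to exon length and library depth) in at least 3 libraries and were tested. The prefix also took in HSPBAP1 and HSPBP1, which are not small heat shock proteins.

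All cells received plasmids by lipid transfection, and RNA was taken 48 hours later from cells at passages 8 to 12. There were 7 groups of 3 libraries. RfxCasR, a CRISPR enzyme that a guide RNA directs to cut matching RNA, was expressed with an ANXA4 array of guides or an NT (non-targeting) array, and with a B4GALNT1 gRNA (a single guide RNA) or an NT gRNA. Short hairpin RNAs (shRNAs), which load Argonaute proteins with a small RNA matching a messenger, were expressed against ANXA4 or B4GALNT1, or as an NT shRNA. The series title sets the specificity of RfxCasR beside that of matching shRNAs. The design calls the replicates biological without saying how they were separated, and the p-values below measure only how far these libraries spread. Every level below is that of transfected cells of 1 line, and untransfected cells were not analysed here.

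Heat shock proteins keep other proteins folded. Misfolded chains are bound by HSP70, which is loaded by J-domain partners and emptied by HSP110, and then pass to HSP90 or to closed chambers such as mitochondrial HSP60 and the cytosolic CCT ring. Their genes are turned on by HSF1, a factor that HSP70, DNAJB1 and HSP90 hold back until unfolded proteins draw them away. HSF1 binds heat shock elements, inverted repeats of the unit GAA, spelled TTC on the other strand. Growing cultured cells express much of the family without heat.

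The depth was 21.4 to 30.7 M reads in the 15 libraries of shRNAs and single guides and 34.7 to 39.5 M in the 6 of arrays (M, megareads), as recovered from the FPKM values. ANXA4 was at 2.40 ± 0.220 FPKM in ANXA4 shRNA cells and 5.90 ± 0.378 in NT shRNA cells, and B4GALNT1 was at 2.21 ± 0.167 FPKM in B4GALNT1 gRNA cells and 5.89 ± 0.907 in NT gRNA cells. B4GALNT1 was at 2.78 ± 0.183 FPKM in B4GALNT1 shRNA cells and 4.08 ± 0.179 in NT shRNA cells (SD, n = 3 each). In the array libraries the target did not follow the labels. ANXA4 stood at 7.03 ± 0.240 FPKM in the libraries labelled ANXA4 array and 3.03 ± 0.427 in those labelled NT array. The authors' deposited table gives array changes of the opposite sign, so directions between these groups are given only as labelled. Each of these differences had an exact two-sided permutation p of 0.1, the smallest that 3 libraries against 3 allow. Vimentin (388 to 682 FPKM), KRT8, KRT18 and the neurofilament NEFL, all known from HEK 293 cells, were present in every library. The same list of 8 held NEFM, CDH2, NES (3.54 to 9.33 FPKM) and PAX2, which had a median of 0.635 FPKM (0.186 to 1.32). The 8 HEK 293 markers summed to 851.6 to 905 FPKM in the libraries labelled ANXA4 array, 871 to 903 in NT array, 796 to 814 in B4GALNT1 gRNA and 819 to 838 in NT gRNA libraries. They summed to 739.6 to 766 FPKM in ANXA4 shRNA, 768.5 to 784 in B4GALNT1 shRNA and 583 to 602 in NT shRNA libraries, so the control of both shRNA comparisons was the lowest group. Vimentin was the largest term of every sum, and the next highest marker, KRT8, reached 75.1 FPKM. Of 11 markers of blood, endothelium, fibroblasts and muscle, 8 had a median under 1 FPKM, HBB was at 0 in every library, and the collagen gene COL1A1 reached 11.03 FPKM. The 11 markers summed to 11.7 to 12.9 FPKM in the libraries labelled ANXA4 array, 10.7 to 11.1 in NT array, 14.7 to 17.6 in B4GALNT1 gRNA and 16.8 to 18.2 in NT gRNA libraries. They summed to 13.8 to 14.5 FPKM in ANXA4 shRNA, 14.2 to 15.3 in B4GALNT1 shRNA and 16.1 to 16.8 in NT shRNA libraries. The part of either marker list in the results was not tested.

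The upstream sequences of 6 members are shown, chosen on 3 grounds. Among members tested, DNAJB1 and DNAJB4 had the 2 largest log2(FPKM + 1) rises against NT shRNA with each targeting shRNA. HSPA8 and HSPA1A had the highest HSP70 levels, and HSP90AA1 and DNAJB6 had opposite changes with the 2 targeting shRNAs. The 6 are a selection of members with an element. HSF1, HSPB1, HSP90AB1, HSPE1, HSPBP1 and DNAJB2 also had opposite calls and are not shown. Of these, HSPB1 and HSP90AB1 held an element, HSF1 had no window, and HSPE1, HSPBP1 and DNAJB2 held none in the bases searched. The elements found for HSPD1, on the opposite strand, lie just upstream of the HSPE1 window. The sequences are the 250 bases before a RefSeq start, 5′ to 3′ on the gene's strand, from GRCh38.p14. Where a gene had several starts, the window that held an element is shown. DNAJB1 had 2 further windows and DNAJB4 and HSP90AA1 1 each, and none of these held an element. The further DNAJB4 window (chr1:77978925-77979224, plus strand) lies upstream of the one shown. Windows were matched by gene symbol, and which start gave the counted transcripts was not tested. Capitals mark the GAA and TTC units of each heat shock element found. The windows are chr19:14518398-14518647 on the minus strand for DNAJB1, chr11:123062137-123062386 minus for HSPA8, chr6:31815293-31815542 plus for HSPA1A, chr1:78004689-78004938 plus for DNAJB4, chr14:102087045-102087294 minus for HSP90AA1 and chr7:157336754-157337003 plus for DNAJB6.
DNAJB1: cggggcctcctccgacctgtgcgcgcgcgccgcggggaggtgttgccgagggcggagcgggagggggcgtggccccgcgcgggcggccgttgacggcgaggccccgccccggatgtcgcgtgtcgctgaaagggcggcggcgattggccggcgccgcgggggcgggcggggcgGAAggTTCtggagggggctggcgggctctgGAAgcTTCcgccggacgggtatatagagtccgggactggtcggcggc
HSPA8: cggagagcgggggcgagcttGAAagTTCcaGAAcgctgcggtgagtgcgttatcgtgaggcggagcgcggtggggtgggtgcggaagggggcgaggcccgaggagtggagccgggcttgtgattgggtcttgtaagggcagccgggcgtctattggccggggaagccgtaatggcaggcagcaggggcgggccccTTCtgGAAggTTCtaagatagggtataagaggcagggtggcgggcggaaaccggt
HSPA1A: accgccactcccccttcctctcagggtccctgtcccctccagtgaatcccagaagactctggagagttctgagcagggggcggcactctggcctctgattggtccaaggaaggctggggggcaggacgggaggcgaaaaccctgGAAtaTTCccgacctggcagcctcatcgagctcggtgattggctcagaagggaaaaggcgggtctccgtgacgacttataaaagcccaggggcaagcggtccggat
DNAJB4: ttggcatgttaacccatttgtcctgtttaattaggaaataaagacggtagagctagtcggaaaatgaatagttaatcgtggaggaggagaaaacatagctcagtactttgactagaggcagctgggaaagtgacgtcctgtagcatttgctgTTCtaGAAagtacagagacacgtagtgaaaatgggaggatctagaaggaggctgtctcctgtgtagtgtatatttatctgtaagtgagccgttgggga
HSP90AA1: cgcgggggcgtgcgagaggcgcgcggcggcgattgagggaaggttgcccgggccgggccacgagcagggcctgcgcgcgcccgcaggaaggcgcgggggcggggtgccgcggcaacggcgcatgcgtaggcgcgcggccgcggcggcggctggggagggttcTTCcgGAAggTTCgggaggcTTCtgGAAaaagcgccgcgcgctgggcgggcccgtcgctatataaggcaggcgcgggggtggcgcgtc
DNAJB6: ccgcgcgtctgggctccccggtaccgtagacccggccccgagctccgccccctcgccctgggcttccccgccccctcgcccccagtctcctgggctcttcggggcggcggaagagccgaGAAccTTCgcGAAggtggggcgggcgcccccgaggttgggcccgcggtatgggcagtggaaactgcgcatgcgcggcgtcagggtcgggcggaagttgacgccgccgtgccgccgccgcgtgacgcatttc
Elements were searched as GAANNTTC or TTCNNGAA (2 units), and as either of these followed, after another NN, by the unit it starts with (3 units). Each 2-unit form is its own reverse complement, the 3-unit forms are each other's, and a 3-unit match contains 2-unit matches. HSPA8 held 3-unit elements at 230 to 218 and at 55 to 43 bases before the start. HSP90AA1 had one at 88 to 76 bases and a separate 2-unit element at 68 to 61. DNAJB6 had its 3-unit element at 131 to 119 bases. DNAJB1 had 2-unit elements at 77 to 70 and 47 to 40 bases, HSPA1A at 106 to 99 and DNAJB4 at 98 to 91. Across the 48 members with a RefSeq window, 21 held at least a 2-unit element in 1 or more of up to 3 windows a gene (43.75%), against 13.96% of 27305 genes with a window. Counted by window, 21 of 66 member windows held one (31.82%), against 11.58% of 35116 windows. The 3-unit element was in 6 of 48 members (12.5%), namely DNAJB6, HSP90AA1, HSP90AB1, HSPA6, HSPA8 and HSPD1, against 0.56% of genes. CCT6A, DNAJB3, HSF1, HSPA12B, HSPA14, HSPB11 and HSPB2 had no window in the table. The HSPA1A and HSPA1L windows overlap on opposite strands and hold the same GAATATTC site, which counts for both members. A match describes these letters and not a bound site.

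Levels spanned the family. HSP90AB1 (727.7 to 955.8 FPKM, median 909.6) and HSP90AA1 (679.0 to 1087, median 731.2), the constitutive and the stress-responsive cytosolic HSP90, were the most abundant members per length. HSPA8, the constitutive HSP70, followed with a median of 513.3 FPKM and the widest spread among members with a median of at least 100 FPKM, its highest library being 2.28 times its lowest. In all, 19 members had a median of at least 100 FPKM, 18 lay from 10 to under 100, 6 from 1 to under 10, and 12 under 1. The 12 members below the filter were DNAJA4, DNAJB3, DNAJB7, DNAJB8, DNAJB13, HSPA6, HSPA12B, HSPB2, HSPB3, HSPB6, HSPB7 and HSPB9. HSPB9 reached 1.21 FPKM in a single NT shRNA library, no other of the 12 passed 0.544 FPKM, and DNAJB7 was at 0 in all 21 libraries.

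DNAJB1 (NM_006145, hg19 chromosome 19, 14625576 to 14629371, minus strand) is the J-domain partner that delivers substrates to stress-induced HSP70. Among the 43 members tested, it had the largest log2(FPKM + 1) rise with both targeting shRNAs. It was at 97.1, 96.6 and 98.4 FPKM in ANXA4 shRNA cells, 92.7, 98.8 and 95.5 in B4GALNT1 shRNA cells, and 51.0, 51.8 and 51.0 in NT shRNA cells. It was at 52.9, 54.1 and 53.0 FPKM in B4GALNT1 gRNA cells and 55.6, 53.4 and 51.9 in NT gRNA cells. The libraries labelled ANXA4 array held 81.0, 78.9 and 76.0 FPKM and those labelled NT array 74.3, 81.6 and 81.6. Both targeting shRNA groups thus lay above every other group with no overlap, the arrays came between, and the 2 single-guide groups overlapped each other. With limma the log2(FPKM + 1) change was 0.91 ± 0.037 (SE) for the ANXA4 shRNA (adjusted p = 3.94e-13) and 0.89 ± 0.037 for the B4GALNT1 shRNA (adjusted p = 1.3e-12), each against the same NT shRNA libraries. In such bulk RNA, more cells with the transcript and more transcript per cell cannot be told apart.

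HSPA8, the constitutive HSP70 of the cytosol (NM_006597, hg19 chromosome 11, 122928200 to 122933043, minus strand), was at 541, 553 and 533 FPKM in ANXA4 shRNA cells and 512, 545 and 513 in B4GALNT1 shRNA cells. NT shRNA cells held 388, 389 and 372 FPKM. It was at 329, 337 and 338 FPKM in B4GALNT1 gRNA cells and 355, 358 and 347 in NT gRNA cells. The libraries labelled ANXA4 array held 657, 654 and 675 FPKM and those labelled NT array 659, 735 and 749, the highest of the series. The array libraries did not overlap any other group. Against NT shRNA, HSPA8 rose by 0.50 ± 0.038 on the log2 scale with the ANXA4 shRNA (limma adjusted p = 2.37e-09) and by 0.45 ± 0.038 with the B4GALNT1 shRNA (adjusted p = 1.83e-08).

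HSPA1A, a stress-inducible HSP70 (NM_005345, hg19 chromosome 6, 31783291 to 31785719, plus strand), was at 384, 381 and 391 FPKM in ANXA4 shRNA cells. It was at 319, 339 and 323 FPKM in B4GALNT1 shRNA cells and 276, 275 and 266 in NT shRNA cells. It was at 262, 277 and 256 FPKM in B4GALNT1 gRNA cells and 264, 261 and 258 in NT gRNA cells. The libraries labelled ANXA4 array held 387, 342 and 344 FPKM and those labelled NT array 332, 363 and 366. The 3 shRNA groups did not overlap, and the NT shRNA range overlapped that of the B4GALNT1 gRNA. HSPA1A rose by 0.50 ± 0.045 (log2) with the ANXA4 shRNA (limma adjusted p = 2.12e-08) and by 0.26 ± 0.045 with the B4GALNT1 shRNA (adjusted p = 9.18e-05).

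HSF1, the transcription factor of the heat shock response (NM_005526, hg19 chromosome 8, 145515251 to 145538389, plus strand), moved in opposite directions with the 2 shRNAs. It was at 64.7, 64.8 and 63.7 FPKM in ANXA4 shRNA cells, 40.5, 41.4 and 45.9 in B4GALNT1 shRNA cells, and 54.7, 56.9 and 56.8 in NT shRNA cells. It was at 57.6, 57.7 and 55.2 FPKM in B4GALNT1 gRNA cells and 55.8, 55.4 and 56.1 in NT gRNA cells. The libraries labelled ANXA4 array held 49.5, 45.8 and 43.9 FPKM and those labelled NT array 41.6, 45.8 and 45.2. The ANXA4 shRNA libraries were the highest of the series and the B4GALNT1 shRNA libraries among the lowest, with no overlap with NT shRNA on either side. HSF1 rose by 0.20 ± 0.047 (log2) with the ANXA4 shRNA (limma adjusted p = 0.0017) and fell by 0.39 ± 0.047 with the B4GALNT1 shRNA (adjusted p = 1.6e-06).

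**Figure D1:**
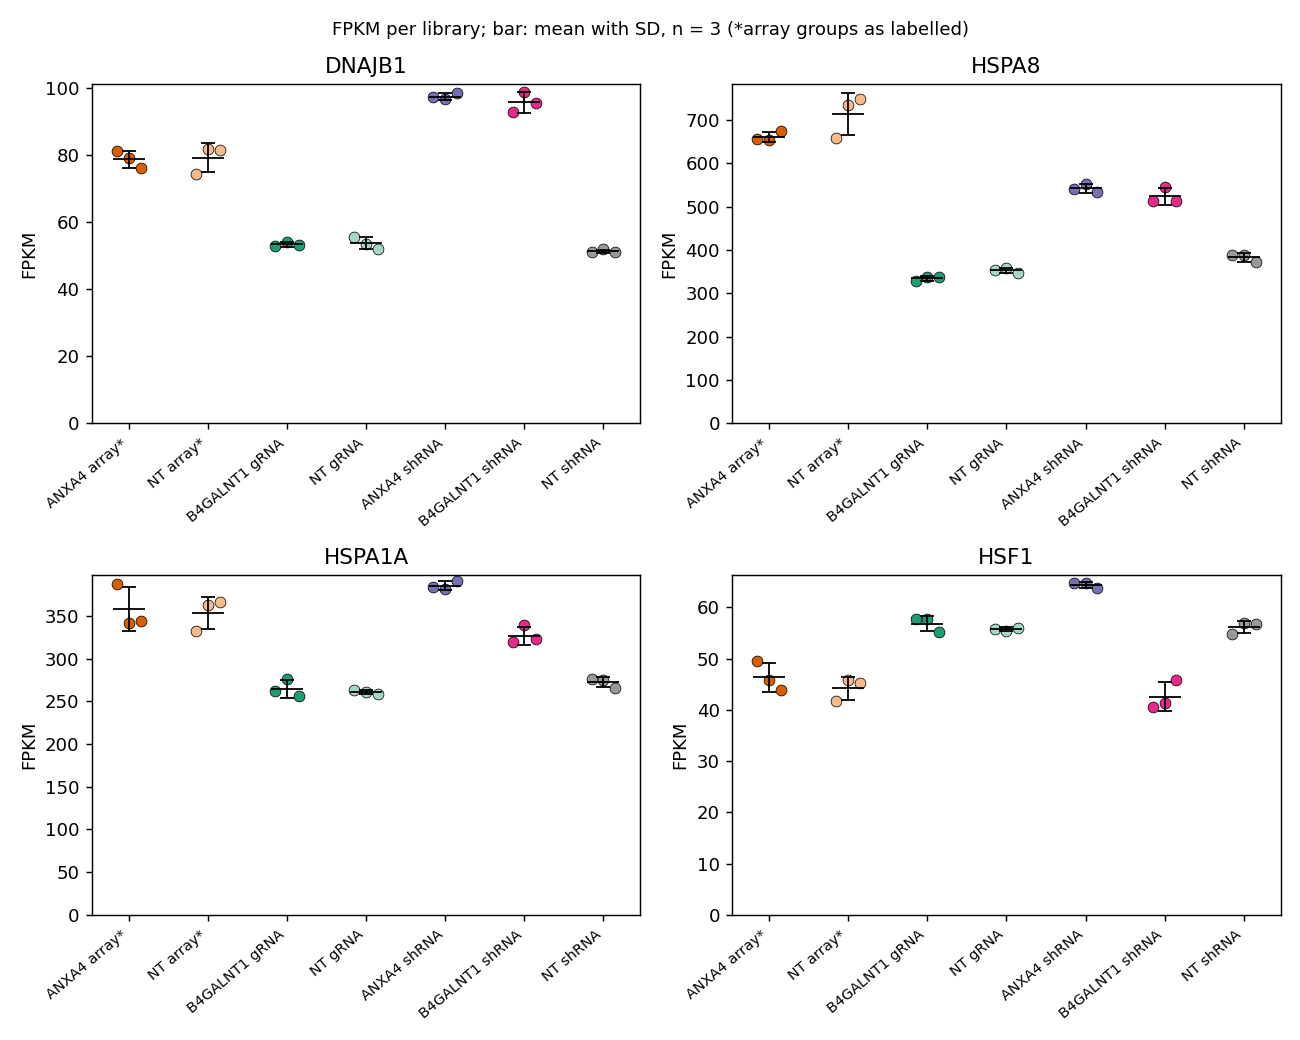
FPKM of DNAJB1, HSPA8, HSPA1A and HSF1 in each library (points) with the mean and SD of 3 libraries (bars), by group; array groups are as labelled. DNAJB1 lay at 92.7 to 98.8 FPKM in the 6 libraries with a targeting shRNA and at 51.0 to 55.6 in NT shRNA and single-guide libraries, while HSF1 was high with the ANXA4 shRNA and low with the B4GALNT1 shRNA.

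With the ANXA4 shRNA, 20 of the 43 members tested rose and 8 fell against NT shRNA (65.1% called), where 51.8% of all 13679 genes tested were called, 25.6% higher and 26.3% lower. With the B4GALNT1 shRNA, 20 members rose and 9 fell (67.4% called), where 44.4% of all genes were called, 18.4% higher and 26% lower. With so many genes called, a call alone did not set a member apart. The median member changed by 0.08 on the log2 scale with the ANXA4 shRNA, against -0.0076 for the median gene, and by 0.089 with the B4GALNT1 shRNA, against -0.038. Most changes were small, and DNAJB1, DNAJB4, HSPA8 and HSPA1A with the ANXA4 shRNA, and DNAJB1, DNAJB4, HSPB8 and HSPBAP1 with the B4GALNT1 shRNA, were the 4 largest in each. Groups did not overlap for 22 members on the higher and 11 on the lower side with the ANXA4 shRNA, where 29.9% and 31.1% of all genes did so. For the B4GALNT1 shRNA the numbers were 22 and 9 members, where 23.1% and 32.4% of all genes did so. Both comparisons use the same 3 NT shRNA libraries, so a low or high NT value enters both.

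Among J-domain proteins, which bring clients to HSP70, 5 of 10 tested rose and 1 fell with the ANXA4 shRNA, and 3 rose and 4 fell with the B4GALNT1 shRNA. DNAJB4, a close relative of DNAJB1, was at 10.2, 8.92 and 9.41 FPKM in ANXA4 shRNA cells, 9.24, 9.12 and 8.32 in B4GALNT1 shRNA cells, and 4.65, 6.06 and 5.68 in NT shRNA cells. Both targeting groups were above every NT shRNA library, with log2 changes of 0.70 ± 0.087 (limma adjusted p = 1.54e-06) and 0.62 ± 0.087 (adjusted p = 1.1e-05). DNAJB6, which holds back aggregation of glutamine-rich proteins, was at 62.2, 59.5 and 60.6 FPKM in ANXA4 shRNA cells, 36.4, 36.4 and 35.0 in B4GALNT1 shRNA cells, and 44.1, 45.7 and 44.3 in NT shRNA cells. It rose by 0.44 ± 0.037 with the ANXA4 shRNA (limma adjusted p = 9.6e-09) and fell by 0.31 ± 0.037 with the B4GALNT1 shRNA (adjusted p = 1.64e-06). DNAJB2, a neuron-enriched family member, had the same pattern: 24.5 ± 1.09 FPKM in ANXA4 shRNA cells, 14.7 ± 0.453 in B4GALNT1 shRNA cells and 19.2 ± 1.08 in NT shRNA cells. DNAJA3, which works in mitochondria, was at 28.6 ± 0.472 FPKM in B4GALNT1 shRNA cells and 39.8 ± 1.01 in NT shRNA cells. DNAJB12, anchored in the endoplasmic reticulum membrane, was at 11.5 ± 0.889 FPKM in B4GALNT1 shRNA cells and 14.7 ± 0.608 in NT shRNA cells. Its relative DNAJB14 fell by 0.30 (log2) with the ANXA4 shRNA, but not without ANXA4 shRNA replicate 2 (-0.22). DNAJA2, a cytosolic partner of HSPA8, rose by 0.17 and 0.19 with the ANXA4 and B4GALNT1 shRNAs.

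Among HSP70 genes, 3 of 8 tested rose and 2 fell with each targeting shRNA. HSPA1B, which encodes the same protein as HSPA1A, rose by 0.39 ± 0.054 with the ANXA4 shRNA (limma adjusted p = 5.76e-06) and by 0.26 ± 0.054 with the B4GALNT1 shRNA (adjusted p = 0.000556). HSPA1A and HSPA1B are nearly identical, so their reads may be split between copies in the authors' counting. HSPA1A, HSPA1B and HSPA1L are also each listed with 5 copies. How reads were shared among those is not given in the sources used here. The sum of HSPA1A and HSPA1B was 752 ± 10.1 FPKM in ANXA4 shRNA cells, 662 ± 20.7 in B4GALNT1 shRNA cells and 552 ± 12.97 in NT shRNA cells. HSPA2, a testis-enriched HSP70, fell by 0.29 with the ANXA4 shRNA and by 0.24 with the B4GALNT1 shRNA. HSPA14, a ribosome-associated HSP70, fell by 0.22 with the ANXA4 shRNA, and HSPA12A, a distant relative, fell by 0.19 with the B4GALNT1 shRNA. HSPA6, an HSP70 that is nearly silent without stress, was below the filter. It had 0.450, 0.338 and 0.544 FPKM in ANXA4 shRNA cells (26, 17 and 29 reads), 0.308, 0.206 and 0.317 in B4GALNT1 shRNA cells (21, 11 and 18 reads), and 0.035, 0.149 and 0.257 in NT shRNA cells (2, 8 and 14 reads). The highest HSPA6 value in the RfxCasR libraries was 0.146 FPKM. The authors' deposited table gives HSPA6 a log2 fold of 1.57 with an adjusted p of 0.0388 for the ANXA4 shRNA, and 0.91 with an adjusted p of 0.308 for the B4GALNT1 shRNA. Among the HSP110 exchange factors, HSPH1 rose by 0.18 with the ANXA4 shRNA (limma adjusted p = 0.038) and HSPA4L by 0.22 with the B4GALNT1 shRNA, while HSPA4 was called with neither.

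Both HSP90 genes were lower with the ANXA4 shRNA and higher with the B4GALNT1 shRNA. HSP90AB1 was at 736, 728 and 732 FPKM in ANXA4 shRNA cells, 948, 944 and 936 in B4GALNT1 shRNA cells, and 840, 833 and 837 in NT shRNA cells. It fell by 0.19 ± 0.021 with the ANXA4 shRNA (limma adjusted p = 4.09e-07) and rose by 0.17 ± 0.021 with the B4GALNT1 shRNA (adjusted p = 2.5e-06). In NT gRNA cells HSP90AB1 was at 944 ± 10.4 FPKM. HSP90AA1 was at 700, 685 and 679 FPKM in ANXA4 shRNA cells, 913, 899 and 851 in B4GALNT1 shRNA cells, and 746, 727 and 731 in NT shRNA cells. It rose by 0.27 ± 0.032 with the B4GALNT1 shRNA (limma adjusted p = 1.54e-06), and its fall of 0.094 with the ANXA4 shRNA had an adjusted p of 0.0202. All 3 shRNA groups were apart for both genes.

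STIP1, which links HSP70 to HSP90, rose by 0.42 ± 0.033 with the ANXA4 shRNA (244 ± 2.01 FPKM, against 183 ± 3.03 in NT shRNA cells). Its change with the B4GALNT1 shRNA was 0.099 ± 0.033 (limma adjusted p = 0.0216). HSF2, a second heat shock factor, was at 25.4 ± 1.32 FPKM in ANXA4 shRNA cells and 19.0 ± 1.08 in NT shRNA cells, a rise of 0.40. HSF2 stood at 20.9 ± 1.21 FPKM in B4GALNT1 shRNA cells and was not called (limma adjusted p = 0.062). BAG3, an exchange factor that sends HSP70 clients to autophagy, fell by 0.23 with the ANXA4 shRNA, at 24.8 ± 0.580 FPKM against 29.4 ± 1.04 in NT shRNA cells. In B4GALNT1 shRNA cells BAG3 was at 29.0 ± 1.77 FPKM and was not called.

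Of the 3 genes with the HSPB prefix that were tested and encode or are named as small heat shock proteins, HSPB8, a partner of BAG3, rose with both shRNAs. It was at 12.3, 11.2 and 11.9 FPKM in ANXA4 shRNA cells, 14.1, 14.4 and 14.9 in B4GALNT1 shRNA cells, and 9.36, 9.69 and 9.23 in NT shRNA cells. HSPB1, the most abundant of the 3, fell by 0.18 with the ANXA4 shRNA (65.9 ± 1.93 FPKM) and rose by 0.31 with the B4GALNT1 shRNA (92.5 ± 3.06), against 74.6 ± 2.85 FPKM in NT shRNA cells. HSPB11, known as a subunit of ciliary transport, was called with neither. Of the name matches, HSPBP1, a nucleotide exchange factor of HSP70, rose by 0.35 with the ANXA4 shRNA and fell by 0.20 with the B4GALNT1 shRNA. HSPBAP1, which binds HSPB1, had the largest log2(FPKM + 1) fall of the members tested, 0.63, with the B4GALNT1 shRNA (2.80 ± 0.120 FPKM, against 4.90 ± 0.504 in NT shRNA cells). In NT gRNA cells HSPBAP1 was at 2.98 ± 0.592 FPKM.

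In mitochondria, HSPD1 (HSP60), its lid HSPE1 and the HSP70 HSPA9 all rose with the B4GALNT1 shRNA, by 0.15, 0.19 and 0.26. With the ANXA4 shRNA HSPA9 rose by 0.17, HSPD1 was not called, and HSPE1 fell by 0.25 (128 ± 1.77 FPKM, against 153 ± 5.26 in NT shRNA cells). HSPE1 shares exons with the readthrough HSPE1-MOB4, listed at 27.2 ± 0.356 FPKM in ANXA4 shRNA cells and 30.1 ± 0.806 in NT shRNA cells, and both have uncertain shares of the reads.

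The CCT ring, which folds actin and tubulin, had 5 of 8 subunits higher and 0 lower with each targeting shRNA. CCT2 was at 271, 273 and 268 FPKM in ANXA4 shRNA cells, 238, 256 and 246 in B4GALNT1 shRNA cells, and 201, 203 and 192 in NT shRNA cells, with log2 changes of 0.44 ± 0.036 and 0.31 ± 0.036. TCP1, CCT4 and CCT8 rose with both (0.14, 0.23 and 0.12 with the ANXA4 shRNA, and 0.23, 0.31 and 0.30 with the B4GALNT1 shRNA). CCT6A rose by 0.18 with the ANXA4 shRNA and CCT3 by 0.23 with the B4GALNT1 shRNA. Set directly against each other, the 2 shRNAs differed for CCT3 (-0.31, ANXA4 minus B4GALNT1) and were not called different for CCT6A. CCT5 and CCT7 were called in neither, with CCT5 at 219 ± 3.74, 219 ± 1.47 and 217 ± 4.42 FPKM in ANXA4, B4GALNT1 and NT shRNA cells. Subunits that form 1 ring in equal numbers thus did not change by equal amounts. Reads of HSPA8, HSPD1, HSPE1, the HSP90 pair and the CCT genes can be shared with processed pseudogenes, and how the authors' counting treated those is not given in the sources used here.

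**Figure D2:**
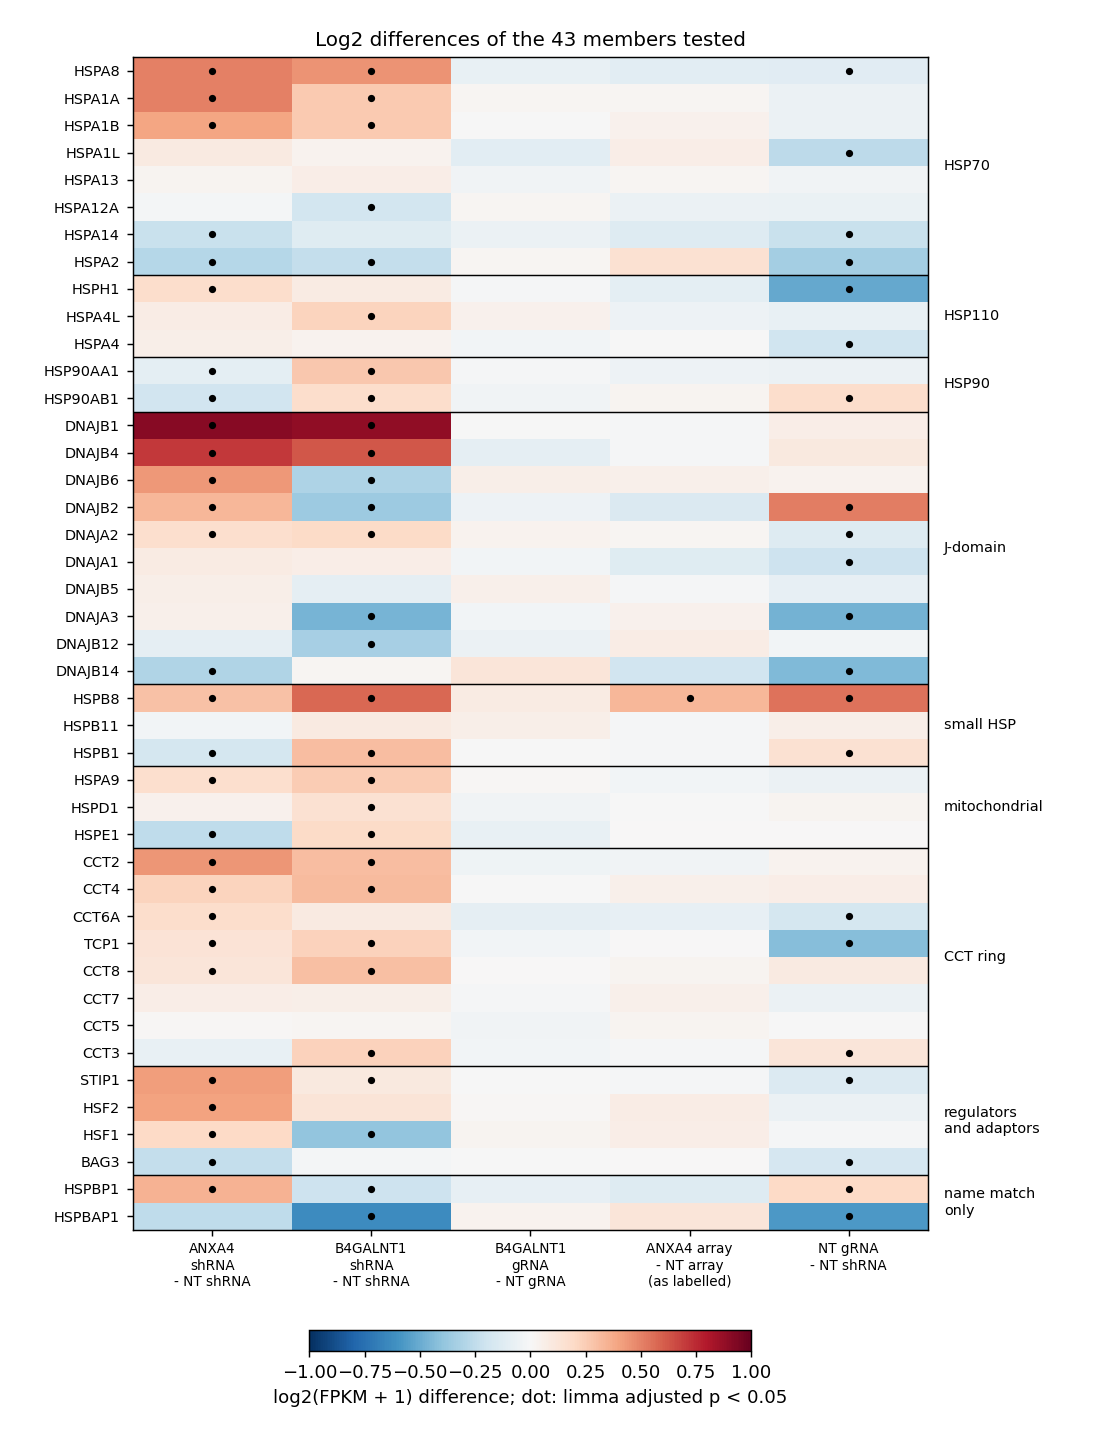
Log2(FPKM + 1) differences of the 43 members tested (rows, by role) in 5 comparisons (columns), where red is higher and blue lower in the first group named, and a dot marks a limma adjusted p under 0.05. The shRNA columns hold 28 and 29 dots, the B4GALNT1 gRNA column 0 and the array column 1, and the largest values in the shRNA columns are DNAJB1 at 0.91 and 0.89.

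Some calls did not hold when a library was left out. With the ANXA4 shRNA, HSPH1 was lost without ANXA4 shRNA replicate 1 or 2 or any NT shRNA replicate, HSP90AA1 without ANXA4 shRNA replicate 2 or 3 or NT shRNA replicate 1, and CCT8 without ANXA4 shRNA replicate 2 or NT shRNA replicate 3. With the B4GALNT1 shRNA, STIP1 was lost without B4GALNT1 shRNA replicate 1 or 2 or NT shRNA replicate 3, HSPA12A without B4GALNT1 shRNA replicate 3 or NT shRNA replicate 3, and HSPA2 without B4GALNT1 shRNA replicate 3 or NT shRNA replicate 1.

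The 2 targeting shRNAs were also compared directly, which uses no NT library. Of 43 members, 12 were higher and 14 lower in ANXA4 shRNA cells than in B4GALNT1 shRNA cells, where 46.7% of all genes were called, 27.1% higher and 19.6% lower. DNAJB6 differed most (0.74 ± 0.037, limma adjusted p = 7.69e-12), followed on the higher side by DNAJB2 (0.70), HSF1 (0.59), HSPBP1 (0.55) and DNAJA3 (0.51). On the lower side were HSPB1 (-0.48), HSPE1 (-0.45), HSP90AA1 (-0.37), HSP90AB1 (-0.36) and DNAJB14 (-0.33). HSPA1A was 0.24 ± 0.045 higher with the ANXA4 shRNA (limma adjusted p = 0.000241). DNAJB1 differed by 0.026, with a 95% interval of -0.053 to 0.10, and HSPA8 by 0.051, with an interval of -0.029 to 0.13, and neither was called. HSPA8 became higher in ANXA4 shRNA cells after quantile normalization (0.18, limma adjusted p = 0.00012). All 4 tested regulators and adaptors and both HSP90 genes differed between the shRNAs. In the main fit so did all 3 mitochondrial genes, HSPB1, HSPB8, HSPB11, HSPBP1 and HSPBAP1. HSPA9 was lost without ANXA4 shRNA replicate 2 or 3 or B4GALNT1 shRNA replicate 1 or 2, and after quantile normalization (-0.057). HSPB11 was lost without ANXA4 shRNA replicate 3 or B4GALNT1 shRNA replicate 2 or 3, and with voom. HSPA9 and HSPB11 had overlapping groups, and both were also lost without the filter, without the variance trend and with only the compared groups fitted. HSPD1 was lost after quantile normalization (-0.043, limma adjusted p = 0.25). Among 10 J-domain genes 4 were higher and 1 lower, and among 8 HSP70 genes 2 were higher and 0 lower. Of the CCT subunits 4 of 8 differed, where 46.7% of all genes did so. Of these, TCP1 was lost without ANXA4 shRNA replicate 2 or 3 or B4GALNT1 shRNA replicate 2 and CCT2 on median-centred values.

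**Figure D3:**
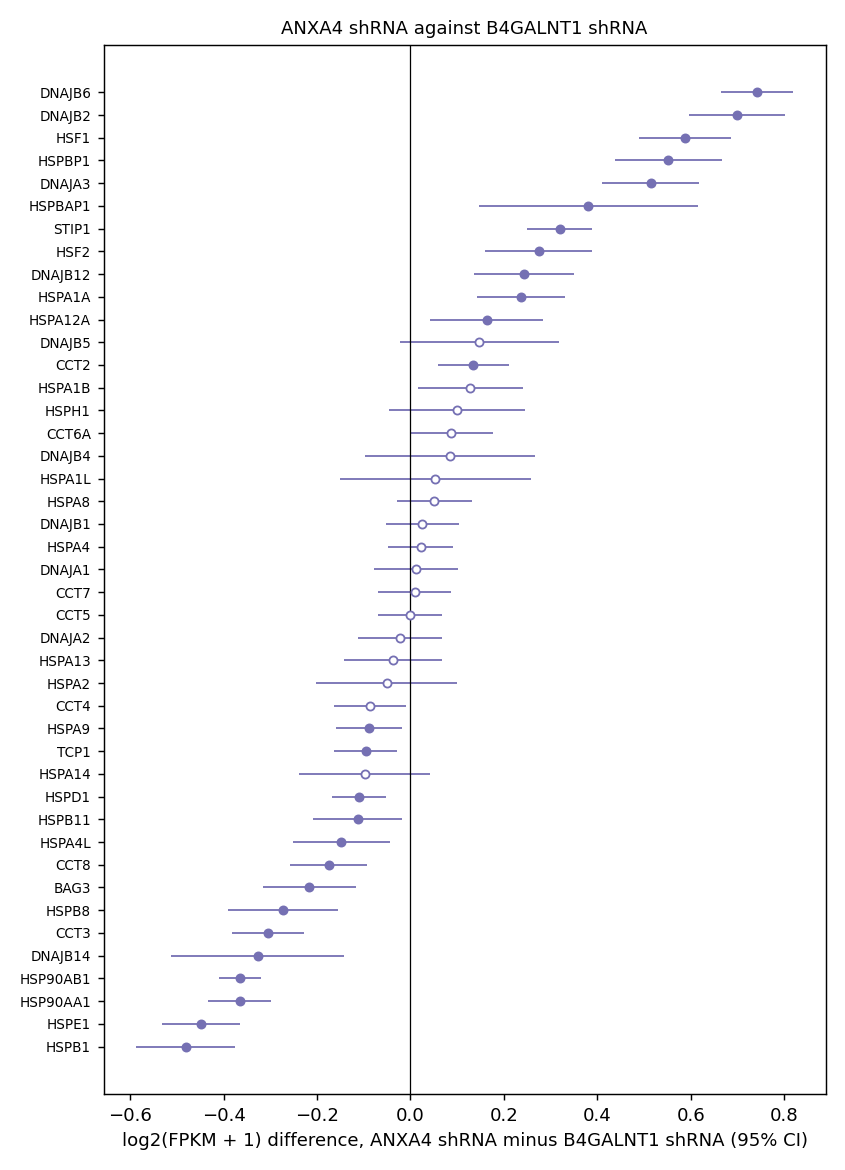
Difference of each tested member between ANXA4 shRNA and B4GALNT1 shRNA cells in log2(FPKM + 1), with its 95% interval, where filled points had a limma adjusted p under 0.05. DNAJB6, DNAJB2 and HSF1 stand at 0.74, 0.70 and 0.59 and HSPB1 at -0.48, while the intervals of DNAJB1 and HSPA8 include 0.

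With the RfxCasR B4GALNT1 gRNA, no member was called against NT gRNA (0 of 43 with limma), where 0.00731% of all genes were called. Voom on the recovered reads and the authors' deposited table also called 0 members, and 1 member, CCT6A, had an unadjusted p under 0.05 (-0.091, p = 0.048). Member differences ran from -0.11 to 0.12 on the log2 scale, and their 95% intervals all lay between -0.31 and 0.31. DNAJB1 differed by -0.0074 (95% interval -0.086 to 0.071), HSPA1A by 0.021 (-0.072 to 0.12) and HSF1 by 0.026 (-0.072 to 0.12). HSPA8 was lower in every B4GALNT1 gRNA library than in any NT gRNA library, by 0.077 (interval -0.16 to 0.0030), and was not called. Groups did not overlap for 2 members on the higher and 5 on the lower side, where 5.34% and 6.5% of all genes did so.

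The B4GALNT1 shRNA and gRNA effects were set against each other in 1 model, each relative to its own NT control. The shRNA effect was higher for 18 members and lower for 6, where 29.8% of all genes were called, 12.9% higher and 16.9% lower. DNAJB1 led with a difference of effects of 0.89 ± 0.053 (limma adjusted p = 5.28e-10), then DNAJB4 (0.71), HSPA8 (0.53), HSPB8 (0.49) and CCT2 (0.35). The lower side was led by HSPBAP1 (-0.67), DNAJA3 (-0.43), HSF1 (-0.42), DNAJB6 (-0.36) and DNAJB2 (-0.32). Both HSP90 genes, all 3 mitochondrial genes and 6 of 8 CCT subunits were on the higher side. CCT6A was lost when any of 7 libraries, from all 4 groups, was left out in turn (B4GALNT1 gRNA replicate 3, B4GALNT1 shRNA replicates 1 and 2, NT gRNA replicates 1 and 3, NT shRNA replicates 2 and 3).

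**Figure D4:**
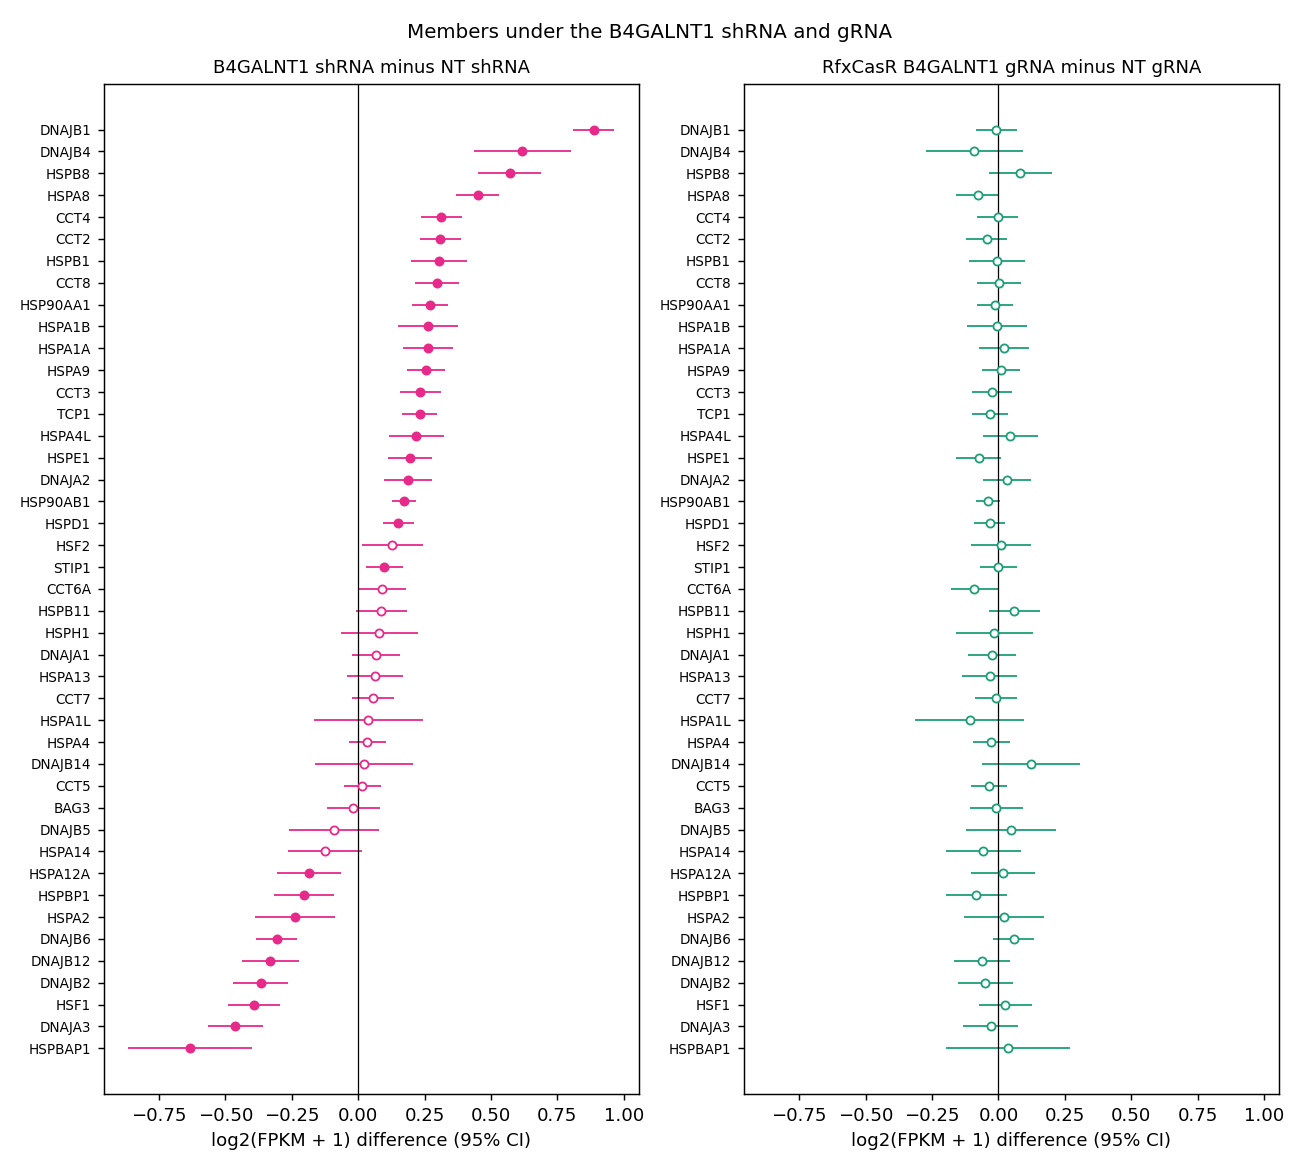
Change of each tested member with the B4GALNT1 shRNA (left, against NT shRNA) and with the RfxCasR B4GALNT1 gRNA (right, against NT gRNA) in log2(FPKM + 1), with 95% intervals and filled points for a limma adjusted p under 0.05. DNAJB1 stands at 0.89 on the left and -0.0074 on the right, and every point on the right is open.

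Between the array groups, 1 of 43 members was called, where 0.285% of all genes were called. HSPB8 was at 16.4, 14.7 and 13.8 FPKM in the libraries labelled ANXA4 array and 11.7, 11.2 and 11.9 in those labelled NT array. They differed by 0.33 ± 0.056 (limma adjusted p = 0.0123). The call was lost when only the 6 array libraries were in the model. The authors' deposited table gives HSPB8 a log2 fold of -0.35 with an adjusted p of 0.357 and calls 0 members. Another 6 members had an unadjusted p under 0.05, among them HSPA8 (-0.11, adjusted p = 0.296), which was called without NT array replicate 1 (-0.16, limma adjusted p = 0.0331). DNAJB1 differed by -0.0083 (95% interval -0.087 to 0.070), HSPA1A by 0.016 (-0.078 to 0.11) and HSF1 by 0.067 (-0.031 to 0.17).

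The NT controls of the 2 methods differed from each other. Of 43 members, 6 were higher and 15 lower in NT gRNA cells than in NT shRNA cells, where 48.9% of all genes were called, 22.4% higher and 26.5% lower. The split was 9 higher and 12 lower on median-centred values and 3 higher and 22 lower after quantile normalization. HSPB8 (0.54 ± 0.056, limma adjusted p = 3.23e-07) and DNAJB2 (0.51) were higher in NT gRNA cells. HSP90AB1 was higher there by 0.17 (limma adjusted p = 2.44e-06), but was not called after quantile normalization (0.026). HSPBAP1 (-0.58), HSPH1 (-0.51), DNAJA3 (-0.48), DNAJB14 (-0.44), TCP1 (-0.42) and HSPA2 (-0.34) were lower. HSPH1 was at 30.3, 28.7 and 30.0 FPKM in NT gRNA cells and 42.2, 43.7 and 42.2 in NT shRNA cells. Mean levels in NT gRNA and B4GALNT1 shRNA cells lay close for HSPBAP1 (2.98 and 2.80 FPKM), DNAJA3 (28.4 and 28.6) and HSPB8 (14.2 and 14.5). HSP90AB1 (944 and 943 FPKM) and HSPA2 (13.2 and 14.2) were also close, while DNAJB1 (53.6 and 95.6) and HSPA8 (353 and 524) were apart. DNAJB1 differed by 0.064 (limma adjusted p = 0.171), or by 0.11 on median-centred values (adjusted p = 0.0408), and HSF1 by -0.0092 (adjusted p = 0.891). HSPA1A differed by -0.061 (adjusted p = 0.273) and became lower after quantile normalization (-0.17, adjusted p = 0.000561). HSPA8 was 0.12 lower (limma adjusted p = 0.0184), and this call was lost on median-centred values (-0.071, adjusted p = 0.189) and without NT gRNA replicate 3 or NT shRNA replicate 1 or 2. NT gRNA and NT shRNA cells differ in both the nuclease and the small RNA, and these cannot be told apart.

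The array libraries stood apart from the single-guide libraries, a comparison added after their values had been seen. Of 43 members, 27 were higher and 9 lower in the 6 array libraries than in the 6 single-guide libraries, where 67.8% of all genes were called, 28.5% higher and 39.3% lower. The split was 30 and 5 on median-centred values, 29 and 5 with voom on the recovered reads, and 22 and 10 after quantile normalization. HSPA8 had the largest rise, 1.00 ± 0.027 (limma adjusted p = 1.64e-15), at 654 to 749 FPKM in array libraries and 329 to 358 in single-guide libraries. DNAJA1, a partner of HSPA8, was at 134 to 149 FPKM in array libraries and 81.7 to 88.3 in single-guide libraries (0.74), and HSPB11 at 55.7 to 59.1 FPKM in array libraries and 33.4 to 36.7 in single-guide libraries (0.73). HSPE1 was at 222 to 245 FPKM in array libraries and 139.9 to 160 in single-guide libraries (0.64). HSP90AA1 (0.59), DNAJB1 (0.55), HSPH1 (0.54) and DNAJB4 (0.48) also rose, and all 8 CCT subunits were called higher. After quantile normalization CCT3 (-0.010) and CCT7 (-0.040) turned to the lower side and were not called, and TCP1 (0.017) was not called either. HSPD1 (0.0081), HSPA9 (-0.034), HSPB1 (0.057) and STIP1 (0.028) also lost their calls there. DNAJB14 fell by 0.80, at 2.09 to 2.92 FPKM in array libraries and 4.41 to 5.29 in single-guide libraries, and HSF1 fell by 0.31, at 41.6 to 49.5 and 55.2 to 57.7 FPKM in the same order. HSP90AB1 was 0.042 lower and became 0.029 higher on median-centred values, where it was not called. Its call was also lost without B4GALNT1 gRNA replicate 1 or NT gRNA replicate 1. The array libraries were deeper, as given above, and the median log2 difference of all genes moved with exon length, at 0.022 for genes under 1 kb, 0.0023 at 1 to 2 kb, -0.035 at 2 to 4 kb and -0.11 above 4 kb. The members' medians in these bins were 0.39 (4 members), 0.079 (9), 0.14 (28) and 0.12 (2). The part of depth and transcript length in these differences was not tested.

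The HSPA1A and HSPA1B copies split differently in the array libraries. HSPA1A was 1.46 to 1.64 times HSPA1B in the 6 array libraries and 0.970 to 1.01 times HSPA1B in the 6 single-guide libraries. A smaller shift stood with the ANXA4 shRNA, at 1.041 to 1.063, against 0.969 to 0.977 with the B4GALNT1 shRNA and 0.970 to 0.980 with the NT shRNA, with no overlap between the ANXA4 shRNA and either. HSPA1B fell by 0.22 in array against single-guide libraries while HSPA1A rose by 0.43. The sum of the pair was 590 ± 36.4 FPKM in the libraries labelled ANXA4 array, 580 ± 40.5 in those labelled NT array, 532 ± 23.7 in B4GALNT1 gRNA and 529 ± 6.06 in NT gRNA cells. The ratios of the 2 array groups overlapped each other.

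**Figure D5:**
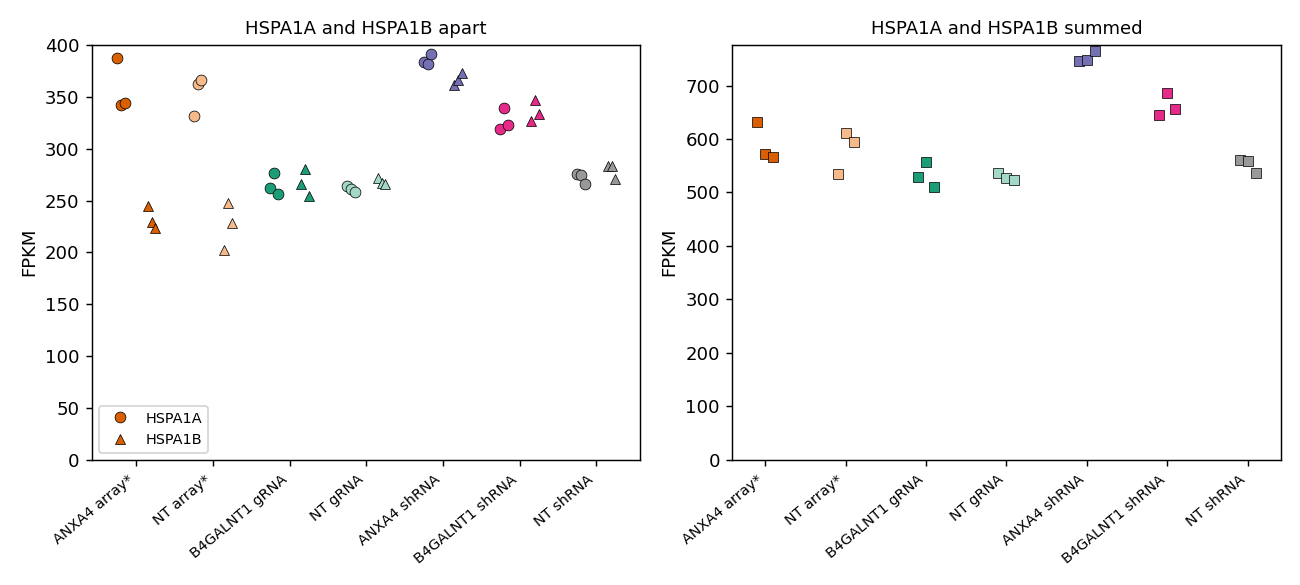
FPKM of HSPA1A (circles) and HSPA1B (triangles) in each library by group (left), and the sum of the 2 in each library (right); array groups are as labelled. HSPA1A is 1.46 to 1.64 times HSPA1B in the array libraries, 1.041 to 1.063 times with the ANXA4 shRNA and 0.969 to 1.01 times in all others. The sum is highest in ANXA4 shRNA cells (752 ± 10.1 FPKM, SD, n = 3).

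Promoter elements were set beside the calls as a description. The site shared by HSPA1A and HSPA1L counts for both, and HSPE1 counts among members with none. With the B4GALNT1 shRNA, 13 of 16 tested members with at least a 2-unit element were called higher and 1 lower, and of 23 with none, 7 were higher and 7 lower. Over all 1161 tested genes with an element 20.4% were called higher and 25% lower there, and over 8824 with none 19.5% and 27.5%. With the ANXA4 shRNA, 9 of 16 members with an element were higher and 3 lower, and of 23 with none, 9 were higher and 4 lower. There 29.1% of all genes with an element were higher and 26.4% lower, and 26.9% and 27.2% of those with none. In array against single-guide libraries 11 of 16 members with an element were higher and 4 lower, and of 23 with none 13 were higher and 4 lower. Over all genes with an element 29.8% were higher and 39.4% lower there, and over those with none 30.1% and 39.8%. With the B4GALNT1 gRNA 0 members of either kind were called with limma. DNAJB6, whose 3-unit element is shown above, fell with the B4GALNT1 shRNA.

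Partners of these chaperones were followed as lists, against the shares of all genes given above for each comparison. Of 13 tested HSP90 co-chaperones, 5 rose and 3 fell with the ANXA4 shRNA, and 4 rose and 3 fell with the B4GALNT1 shRNA. CDC37, which brings kinases to HSP90, rose by 0.79 (178.5 FPKM in ANXA4 shRNA cells and 102.9 in NT shRNA cells, means of 3) and by 0.72 with the B4GALNT1 shRNA. CDC37 was also 0.61 higher in NT gRNA than in NT shRNA cells, and of the genes named below BAG6 (0.44), VBP1 (0.42), HSBP1 (0.39), PFDN2 (0.20) and PFDN6 (0.19) were called higher there too. FKBP4, a steroid receptor co-chaperone, fell by 0.94 with the B4GALNT1 shRNA (64.9 FPKM, against 125 in NT shRNA cells, means of 3). Of 8 HSP70 co-factors, 4 rose and 2 fell with the ANXA4 shRNA and 3 rose and 2 fell with the B4GALNT1 shRNA. These counts include HSPBP1, which is also a member and was counted above. BAG6, which guards newly made membrane proteins, rose by 0.60 and 0.48 with the ANXA4 and B4GALNT1 shRNAs, and BAG4 fell by 0.90 with the ANXA4 shRNA.

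Of 26 tested class C J-domain genes, 6 rose and 8 fell with the ANXA4 shRNA and 4 rose and 5 fell with the B4GALNT1 shRNA. Of 9 prefoldin and CCT helper genes, 5 rose and 1 fell with the ANXA4 shRNA, among them the prefoldin subunits PFDN2 (0.52), PFDN6 (0.56) and VBP1 (0.51), and 2 rose and 1 fell with the B4GALNT1 shRNA. All 6 endoplasmic reticulum relatives rose with the ANXA4 shRNA, where HSPA5, the HSP70 of that compartment, rose by 0.39 and its partner DNAJB9 by 0.55. Of the same 6, 2 rose and 1 fell with the B4GALNT1 shRNA, with HSPA5 at 0.46 and DNAJB9 at 0.91. Of 8 mitochondrial partners, 3 rose and 4 fell with the ANXA4 shRNA and 3 rose and 3 fell with the B4GALNT1 shRNA. Other genes known as HSF1 targets were mixed: of 7 tested, 1 rose and 2 fell with the ANXA4 shRNA, with SERPINH1, the collagen chaperone, 0.45 lower, and 2 rose and 2 fell with the B4GALNT1 shRNA, with IER5 0.73 lower. Of 3 HSF regulators, 1 rose and 0 fell with the ANXA4 shRNA, and 1 rose and 1 fell with the B4GALNT1 shRNA, and HSBP1, which binds the HSF1 trimer, rose by 0.16 and 0.28. No gene of these 8 lists was called with limma for the B4GALNT1 gRNA or between the array groups.

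The authors' deposited tables hold their own test of the 4 labelled comparisons. They call 31 of 49 members for the ANXA4 shRNA (23 higher and 8 lower, where 45.1% of all genes are called) and 35 of 49 for the B4GALNT1 shRNA (26 higher and 9 lower, where 39.0% of all genes are called). For the gRNA they call 0 of 49 members and for the arrays 0 of 53. The sign was the same as in the limma fit for 43 of 43 members with the ANXA4 shRNA, 41 of 43 with the B4GALNT1 shRNA, 40 of 43 with the gRNA and 4 of 43 between the arrays.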

How the data were processed

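FPKM values of 21 libraries were deposited as 1 table, made by the authors with STAR and HOMER on hg19, per the submitters' processing notes. The authors' deposited comparison tables give log2 fold changes, adjusted p-values and a base mean signal, from DESeq2 1.14.1 in R 3.3.2 per the same notes. Whether genes were counted by strand is not given in the sources used here.

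Groups came from the labels. The 13679 genes that reached 1 FPKM or more in 3 or more libraries entered the test, on log2(FPKM + 1), with limma 3.58.1 (R 4.3.3), 1 fit over the 7 groups with a variance trend, Benjamini-Hochberg adjustment within each comparison and a threshold of 0.05. The pseudocount of 1 understates changes of low genes. Values times exon length gave reads that were whole within 0.1 for 99.4% to 99.96% of the values that could be checked. These were 83.4% to 97.5% of the values in a library, lowest in the array libraries. These reads were tested with voom as an alternative, and gave the depths. Replicates differed by more than sampling noise. Chi-square per degree of freedom was 2.27 to 4.38 within shRNA and single-guide groups and 6.18 to 14.19 within array groups. The fit used 1 spread per gene for all groups, so SEs and intervals between the array groups may be too narrow. Scripts were tested on simulated data. pandas 2.3.3 and matplotlib 3.10.9 were used for tables and plots.

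Members, lists and tests were chosen with earlier results of these data known. Named members were the called ones with the largest changes, up to 8 per direction (5 in the direct and difference-of-effects comparisons), called members whose groups did not overlap, and members needed to account for a role. From each partner list up to 3 called genes with the smallest p were named. Promoters and their build came from RefSeq (GRCh38.p14), matched by symbol for 48 of 55 members. Alternatives were another pseudocount, filter, scaling, model or library set, a replicate block, and each replicate left out.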

Additional observations from a re-analysis of the deposited data

Results flagged for a closer look

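For 24 members the B4GALNT1 shRNA effect differed from the B4GALNT1 gRNA effect in the limma test of the difference itself (shRNA effect minus gRNA effect, log2, n = 3 libraries in each of 4 groups). It was higher for DNAJB1 (0.89), DNAJB4 (0.71), HSPA8 (0.53) and HSPB8 (0.49). Among CCT subunits it was higher for CCT2 (0.35), CCT4 (0.32), CCT8 (0.3), TCP1 (0.26), CCT3 (0.26) and CCT6A (0.18). It was also higher for HSPB1 (0.31), HSP90AA1 (0.28), HSPA1B (0.27), HSPE1 (0.27), HSPA9 (0.25), HSPA1A (0.24), HSP90AB1 (0.21) and HSPD1 (0.18). It was lower for HSPBAP1 (-0.67), DNAJA3 (-0.43), HSF1 (-0.42), DNAJB6 (-0.36), DNAJB2 (-0.32) and DNAJB12 (-0.27). The shRNA and gRNA were each set against their own control, and these controls differed for 21 of the 43 members.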

How the results depend on the processing

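Counts of called members stayed within 1.5 times their value under the alternatives run, except between the array groups. There 1 member was called, against 0 in a model of the 6 array libraries alone, 0 in the authors' deposited table, and 1 to 2 with a replicate left out. Leaving out each replicate gave 24 to 28 members for the ANXA4 shRNA, 27 to 30 for the B4GALNT1 shRNA, 0 for the gRNA, 17 to 21 for NT gRNA against NT shRNA, 22 to 25 for ANXA4 against B4GALNT1 shRNA, 23 to 25 for the difference of effects and 35 to 37 for arrays against single guides. Replicate numbers did not pair the libraries (correlations of deviations -0.146 to 0.0901), and the replicate block gave 28, 29, 0, 21, 25, 25 and 36 members in that order and 1 between the arrays. No called direction of DNAJB1, HSPA8, HSPA1A or HSF1 reversed. Calls held in every alternative for 24 of 28 members with the ANXA4 shRNA, 25 of 29 with the B4GALNT1 shRNA, 14 of 21 between the NT controls, 19 of 26 between the targeting shRNAs, 23 of 24 for the difference of effects and 25 of 36 for arrays against single guides. With the B4GALNT1 shRNA, HSP90AB1 was not called after quantile normalization (0.078), nor was HSP90AA1 with the ANXA4 shRNA (-0.026), and the cause was not tested. Depth limits members near 1 FPKM and below, such as HSPA6 with 2 to 29 reads in the shRNA libraries.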
